A study of Homo sapiens with 6 samples.

Results

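The NF-kB family consists of dimeric transcription factors that answer inflammatory cytokines, microbial products and stress, and 10 of its subunit and regulator genes are described here in TOV21G, a human cell line of ovarian clear cell carcinoma. The genes were taken by symbol: the subunit genes NFKB1, NFKB2, RELA, RELB and REL, the inhibitor genes NFKBIA, NFKBIE and NFKBIZ, and the ubiquitin regulators TNFAIP3 and BIRC3. NFKBIZ is grouped with the inhibitors by its IkB name, although its product is a nuclear cofactor. All 10 have a row among the 16910 of the deposited RNA-seq table, and all 10 passed the filter on low counts that left 13235 genes for testing. The table holds 6 libraries in 3 groups of 2. NC libraries are labelled WT and are read here as cells given a control siRNA, siGYS1 libraries are labelled as a knockdown of GYS1, the muscle-type glycogen synthase, and sip53 libraries as a knockdown of p53. All are of this 1 line, and no source used here gives the siRNA sequences or the time after transfection. Nothing in the labels says that the libraries of a group came from separate cultures, so p-values measure the spread between libraries, which may be technical.

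In resting cells NF-kB dimers are held in the cytoplasm by inhibitors of the IkB type. A signal activates the IkB kinase, the inhibitor is degraded, and the freed dimer enters the nucleus and binds kB sites in DNA. RELA, RELB and REL carry transactivation domains, whereas NFKB1 and NFKB2 encode precursors (p105 and p100) that are cut to the DNA-binding subunits p50 and p52. Many genes of the circuit are themselves NF-kB targets, among them NFKBIA and TNFAIP3, which close a negative feedback loop.

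Per library, GYS1 was at 28.57 and 27.26 FPKM (fragments scaled to transcript length and library depth) with NC and at 1.69 and 1.67 with siGYS1, so both libraries labelled siGYS1 carried the knockdown. Read counts per library summed to between 17425000 and 18097337. Of the clear cell carcinoma markers, PAX8 was at 150 ± 8.11 FPKM (mean ± SD, n = 2) with NC, 162 ± 3.73 with siGYS1 and 157 ± 1.48 with sip53. NAPSA, another such marker, was near 0 at 0.32 to 0.47 FPKM in every library. Leukocyte markers, relevant because REL and BIRC3 are also abundant in lymphocytes, summed to between 5.99 and 8.82 FPKM over the 9 of 15 markers analysed here. Most of that sum was CD68 (3.58 to 6.48 FPKM), a lysosomal protein gene, whereas the B cell marker CD79A did not exceed 0.61 FPKM, and TYROBP was at 0 in 5 libraries and at 0.19 in the other. The summed leukocyte markers were 5.99 to 6.02 FPKM with NC, 6.48 to 6.64 with siGYS1 and 7.88 to 8.82 with sip53, where the 2 tested markers, CD68 (log2 fold change 0.81) and ITGAM (0.71), both passed as higher. Fibroblast markers summed to between 11.06 and 22.01 FPKM, most of it COL1A1 (7.63 to 14.65), and endothelial markers to at most 1.53. Against NC, sip53 moved all 5 tested genes of these 2 lists: from read counts DCN (log2 4.23), PECAM1 (2.05) and CDH5 (1.51) were higher, and COL1A1 (-0.43) and PDGFRA (-0.72) lower. PECAM1, CDH5 and PDGFRA did not exceed 1 FPKM in any library, and DCN differed between the NC libraries, at 0.31 and 6.97 FPKM. With sip53 DCN was at 4.47 and 3.12 FPKM, between the NC libraries, so its rise in read counts does not show in FPKM. Mitochondrially encoded transcripts took 5.54% to 6.0% of the reads with NC, 5.07% to 5.47% with siGYS1 and 4.81% to 5.0% with sip53. The part of these markers and transcripts in the results below was not tested.

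Windows of 300 bases around annotated start sites (250 before and 50 after, RefSeq, GRCh38.p14) were read for the members because several of these genes are textbook kB-driven genes that moved differently here. Of the 10 members, 8 had at least 1 window, 13 windows in all. RELB and NFKBIE had none. A match to the 10-base kB consensus on either strand stood in 9 of the 13 windows, from 7 of the 8 genes. Of 35116 such windows of all genes, 11.3% held a match. Several members are known kB-driven genes and some have more than 1 window, so this contrast is not a test. RELA was the member without a match, and the AP-1 word TGANTCA, found in 7.71% of all windows, was in none of the 13. The windows below run 5′ to 3′ on the gene's own strand, with matches to the kB consensus in capitals, and overlapping matches count as 1. They were chosen to set the 2 regulators that rose with both knockdowns beside 2 inhibitors and 2 subunits.
TNFAIP3 (chr6:137867009-137867308, plus strand, 2 matches): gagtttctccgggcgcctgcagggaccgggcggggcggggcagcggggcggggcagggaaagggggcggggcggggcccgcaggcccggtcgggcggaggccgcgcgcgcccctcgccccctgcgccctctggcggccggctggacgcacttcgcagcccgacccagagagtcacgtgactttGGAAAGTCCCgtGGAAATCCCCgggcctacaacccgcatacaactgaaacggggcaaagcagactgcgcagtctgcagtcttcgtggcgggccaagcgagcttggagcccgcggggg
BIRC3 (chr11:102317234-102317533, plus strand, 2 matches): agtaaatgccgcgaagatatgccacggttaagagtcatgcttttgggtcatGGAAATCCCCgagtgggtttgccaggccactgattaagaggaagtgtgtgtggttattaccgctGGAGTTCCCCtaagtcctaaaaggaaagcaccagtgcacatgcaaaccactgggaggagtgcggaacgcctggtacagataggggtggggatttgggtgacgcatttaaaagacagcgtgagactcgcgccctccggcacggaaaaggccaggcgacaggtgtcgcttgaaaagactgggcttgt
NFKBIZ (chr3:101827740-101828039, plus strand, 1 match): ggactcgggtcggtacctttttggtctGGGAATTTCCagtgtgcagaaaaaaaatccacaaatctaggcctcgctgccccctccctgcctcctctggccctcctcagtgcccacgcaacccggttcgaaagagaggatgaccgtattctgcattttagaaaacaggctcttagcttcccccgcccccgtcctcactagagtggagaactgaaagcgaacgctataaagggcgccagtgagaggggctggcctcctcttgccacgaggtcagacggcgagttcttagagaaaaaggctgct
NFKBIA (chr14:35404700-35404999, minus strand, 1 match): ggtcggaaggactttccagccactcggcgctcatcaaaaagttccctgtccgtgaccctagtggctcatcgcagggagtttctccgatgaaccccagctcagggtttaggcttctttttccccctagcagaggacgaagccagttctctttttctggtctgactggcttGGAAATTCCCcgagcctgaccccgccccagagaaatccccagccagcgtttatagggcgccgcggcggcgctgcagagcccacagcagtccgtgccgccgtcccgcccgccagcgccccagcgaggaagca
NFKB1 (chr4:102501109-102501408, plus strand, 1 match): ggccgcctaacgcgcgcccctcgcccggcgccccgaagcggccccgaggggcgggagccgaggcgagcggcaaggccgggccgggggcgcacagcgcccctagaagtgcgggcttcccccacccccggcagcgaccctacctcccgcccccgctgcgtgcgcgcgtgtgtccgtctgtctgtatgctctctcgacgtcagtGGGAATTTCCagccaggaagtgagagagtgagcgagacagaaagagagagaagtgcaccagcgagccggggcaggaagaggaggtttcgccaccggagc
RELA (chr11:65662867-65663166, minus strand, 0 matches): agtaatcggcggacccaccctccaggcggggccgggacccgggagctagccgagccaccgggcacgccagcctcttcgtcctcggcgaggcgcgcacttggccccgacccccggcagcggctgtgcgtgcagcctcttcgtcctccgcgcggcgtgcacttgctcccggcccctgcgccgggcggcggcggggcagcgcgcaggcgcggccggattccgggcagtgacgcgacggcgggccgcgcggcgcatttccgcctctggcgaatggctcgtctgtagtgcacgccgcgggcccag

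The same 10 letters, gggaatttcc on one strand or the other, stood in a window of NFKB1, NFKBIA, NFKBIZ and REL, and in 0.145% of all windows. This word was picked because the most members shared it, so that contrast is not a test. TNFAIP3 and NFKB2 shared gggactttcc instead, and TNFAIP3 and BIRC3 shared ggggatttcc. In TNFAIP3 the matches began 67 and 55 bases before the start site, in BIRC3 199 and 135, in NFKBIZ 223, in NFKBIA 81 and in NFKB1 49. NFKBIZ has another window (chr3:101849264-101849563) with 1 match, while the other windows of NFKB1 and RELA hold none. These matches describe letters only, and binding was not measured.

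With NC, transcripts of NFKBIA and NFKBIZ were the most abundant of the members, and those of the other inhibitor gene, NFKBIE, ranked 8 of 10. NFKBIA, which encodes the classical inhibitor IkB alpha, was at 157.93 and 167.63 FPKM, and NFKBIZ, which encodes the nuclear cofactor IkB zeta, at 109.36 and 94.66. NFKB2 followed at 68.14 and 71.07 FPKM. NFKB1 (35.19 and 28.77) and RELA (32.9 and 29.73) came next and overlapped each other. BIRC3 lay at 25.17 and 24.22, RELB at 16.8 and 18.49, NFKBIE at 12.02 and 12.96, TNFAIP3 at 10.85 and 9.77, and REL at 5.05 and 3.78 FPKM. Apart from NFKB1 and RELA, neighbours in this order did not overlap between their pairs of NC libraries. With sip53, NFKB2 (96.6 ± 0.453 FPKM) stood above NFKBIZ (52.0 ± 0.686), and TNFAIP3 above RELB and NFKBIE. With siGYS1, BIRC3 (38.7 ± 3.72) stood above RELA (30.4 ± 0.849) and TNFAIP3 (16.4 ± 1.08) above NFKBIE (13.0 ± 1.48) without overlap. The mean of BIRC3 also passed that of NFKB1 (33.9 ± 6.98), where the libraries overlapped. These are bulk samples, in which fewer cells expressing a gene and less RNA per cell cannot be told apart. Positions on GRCh38 (GENCODE 29) show other annotated genes overlapping 3 members, none of them a row of the table: an antisense RNA gene over TNFAIP3, a lincRNA gene on the opposite strand of RELA, and 2 non-coding RNA genes on the strand of REL. No source used here says whether the authors' counting used strand, so reads of those genes and of TNFAIP3, RELA and REL cannot be told apart.

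**Figure D1:**
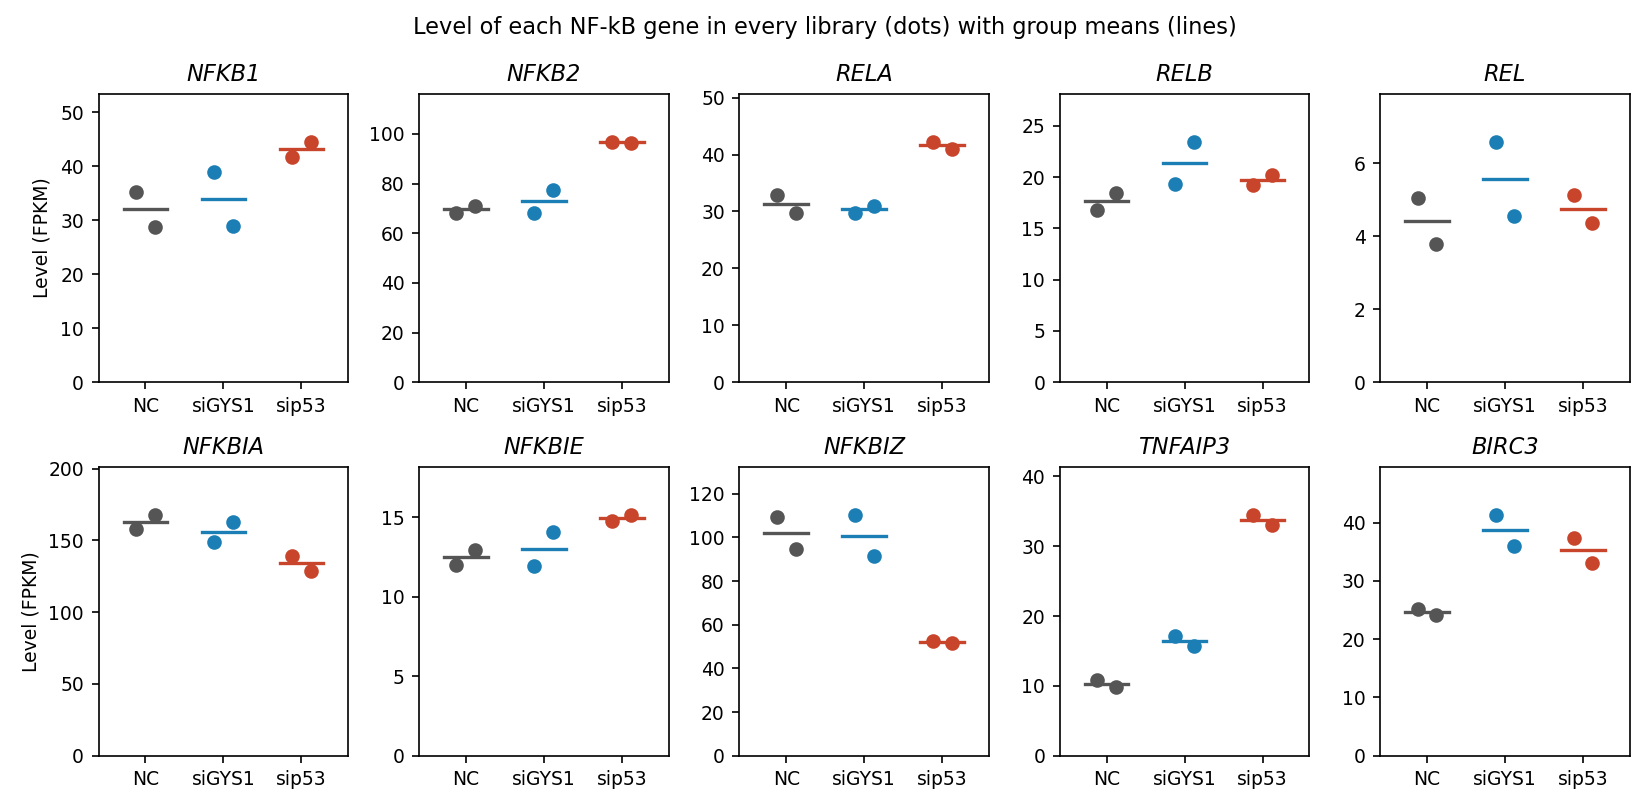
Level of the 10 genes in FPKM (vertical axis, from 0, own scale per panel) in each of the 6 libraries, with NC grey, siGYS1 blue and sip53 red; dots are libraries and lines are means of 2. TNFAIP3 climbs from 10.3 with NC over 16.4 with siGYS1 to 33.7 with sip53, BIRC3 is higher in both knockdowns, and NFKBIZ is low in the sip53 libraries alone of these 6.

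Knockdown of GYS1 was followed by a rise in the ubiquitin regulators TNFAIP3 and BIRC3, while no subunit and no inhibitor gene passed the test. At an adjusted p below 0.05, 2 of 10 members were higher and 0 lower than with NC. Of all tested genes 10.4% were higher and 9.24% lower (19.7% in either direction), so the members' count was near the share in either direction. With library totals as the only scaling the split of all genes was 7.81% higher and 12% lower, and the members' 2 calls were the same genes. The members' median log2 fold change was 0.19, and that of all tested genes -0.01. All adjusted p-values here are Benjamini-Hochberg values over all tested genes from edgeR's quasi-likelihood test, and fold changes are edgeR estimates from read counts with a standard error (SE).

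TNFAIP3 encodes A20, an enzyme that edits ubiquitin chains on signalling proteins and so ends NF-kB activation. It was at 10.85 and 9.77 FPKM with NC and at 17.2 and 15.67 with siGYS1, and the groups did not overlap. The fold change was 1.61 (log2 0.69, SE 0.10, adjusted p = 0.0022). BIRC3 encodes cIAP2, a ubiquitin ligase of the TNF receptor complex that also restrains the kinase NIK. It rose 1.74-fold (log2 0.80, SE 0.12, adjusted p = 0.00272), from 25.17 and 24.22 to 41.3 and 36.04 FPKM. Both genes kept this direction and an adjusted p below 0.05 in all 15 alternative analyses run, at log2 values of 0.60 to 0.77 for TNFAIP3 and 0.62 to 0.99 for BIRC3.

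Of the subunit genes with siGYS1, NFKB1, RELA and NFKB2 had intervals that included no change, while those of RELB (1.07 to 1.52) and REL (1.00 to 1.75), not adjusted for multiple tests, lay at or above it. NFKB1 was at 38.84 and 28.97 FPKM, so its libraries overlapped those of NC, with a fold change of 0.98 (95% interval 0.86 to 1.12). Its read counts in the siGYS1 libraries were 1786 and 1816, closer together than its FPKM. RELA was at 29.8 and 31.0 FPKM (fold change 1.06, interval 0.93 to 1.22) and NFKB2 at 68.23 and 77.3 (1.09, interval 0.95 to 1.25). RELB, the partner of p52 in the noncanonical branch, was at 19.38 and 23.47 FPKM against 16.8 and 18.49 with NC. Its fold change of 1.28 missed the threshold (log2 0.35, SE 0.11, adjusted p = 0.0534), which it passed in 4 of 15 alternatives. REL, the lymphoid-enriched subunit c-Rel, was at 6.6 and 4.56 FPKM and overlapped NC (log2 0.40, SE 0.18, adjusted p = 0.14).

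The REL value moved with each of the 4 libraries compared. Leaving out siGYS1 replicate 1 gave 0.12 and leaving out siGYS1 replicate 2 gave 0.66, which passed the test. Leaving out NC replicate 1 gave 0.61, and NC replicate 2, 0.23, neither of which passed. With offsets that remove each library's trend with length it was 0.08. Levels in siGYS1 replicate 1 rose with transcript length relative to the mean of the 6 libraries (Spearman rho 0.54 across genes), and levels in NC replicate 2 fell with it (-0.39).

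Among the inhibitors, NFKBIA was at 148.66 and 162.66 FPKM with siGYS1, a fold change of 1.00 (interval 0.87 to 1.15). NFKBIZ was at 110.26 and 91.37 FPKM and spanned the NC libraries (1.04, interval 0.87 to 1.23). NFKBIE encodes IkB epsilon, a slower inhibitor of RELA and REL dimers. It was at 11.97 and 14.06 FPKM, overlapped NC, and did not pass (log2 0.26, SE 0.11, adjusted p = 0.135). Without siGYS1 replicate 1 both NFKBIE (0.39) and RELB (0.48) passed, which makes 4 of 10 members higher in place of 2.

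Knockdown of p53 moved more of the circuit, as it did of all tested genes (49.9% passed, against 19.7% with siGYS1). The members did not all go in one direction. TNFAIP3, BIRC3, RELA, NFKB1, NFKB2 and NFKBIE rose, NFKBIZ fell, and NFKBIA, RELB and REL did not pass. That is 6 of 10 members higher and 1 lower, against 23.4% higher and 26.5% lower (49.9% in either direction) of all tested genes. The members' median log2 fold change was 0.42 and that of all tested genes -0.03. With library totals as the only scaling, the median of all genes shifts to -0.12 (18.5% higher, 32.7% lower), and the same 7 members keep their directions with NFKBIA added to the falls (log2 -0.27).

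TNFAIP3 was at 34.46 and 33.02 FPKM with sip53 against 10.85 and 9.77 with NC. This was a 3.45-fold rise (log2 1.79, SE 0.10, adjusted p = 1.39e-06), the largest change of any of the 10 members in this comparison. BIRC3 was at 37.33 and 33.16 FPKM and rose 1.49-fold (log2 0.57, SE 0.12, adjusted p = 0.00399). In both genes, each sip53 library lay above both NC libraries.

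RELA, NFKB1 and NFKB2 rose with sip53. RELA, the main activating subunit, was at 42.27 and 40.97 FPKM against 32.9 and 29.73, a 1.5-fold rise (log2 0.59, SE 0.09, adjusted p = 0.000442). NFKB2 was at 96.87 and 96.23 FPKM against 68.14 and 71.07, a 1.49-fold rise (log2 0.58, SE 0.09, adjusted p = 0.000584). NFKB1 was at 41.7 and 44.55 FPKM against 35.19 and 28.77, a 1.31-fold rise (log2 0.39, SE 0.08, adjusted p = 0.00398). None of the 3 overlapped NC, and all 3 passed in all 15 alternatives. RELB was at 19.2 and 20.22 FPKM, a fold change of 1.21 (interval 1.01 to 1.44, adjusted p = 0.0683), and passed in 6 of 15 alternatives. REL was at 5.13 and 4.38 FPKM and overlapped NC (1.16, interval 0.88 to 1.53).

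The 3 genes grouped as inhibitors, of which NFKBIZ encodes a nuclear cofactor, each did something different with sip53. NFKBIZ was at 52.49 and 51.52 FPKM against 109.36 and 94.66, and fell to 53.7% of NC (log2 -0.90, SE 0.11, adjusted p = 0.000141), in the same libraries in which TNFAIP3 rose. NFKBIA was at 139.24 and 128.74 FPKM, under both NC libraries. The edgeR estimate did not pass (log2 -0.18, SE 0.09, adjusted p = 0.131), but it did with limma on log2(FPKM + 1) (-0.28). NFKBIE was at 14.78 and 15.15 FPKM against 12.02 and 12.96 and rose (log2 0.46, SE 0.11, adjusted p = 0.00687). The NFKBIE call is lost without sip53 replicate 1 (log2 0.46, adjusted p = 0.0502) and with limma on FPKM, where the log2 change is 0.24 with a pseudocount of 1 and 0.26 with 0.1.

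**Figure D2:**
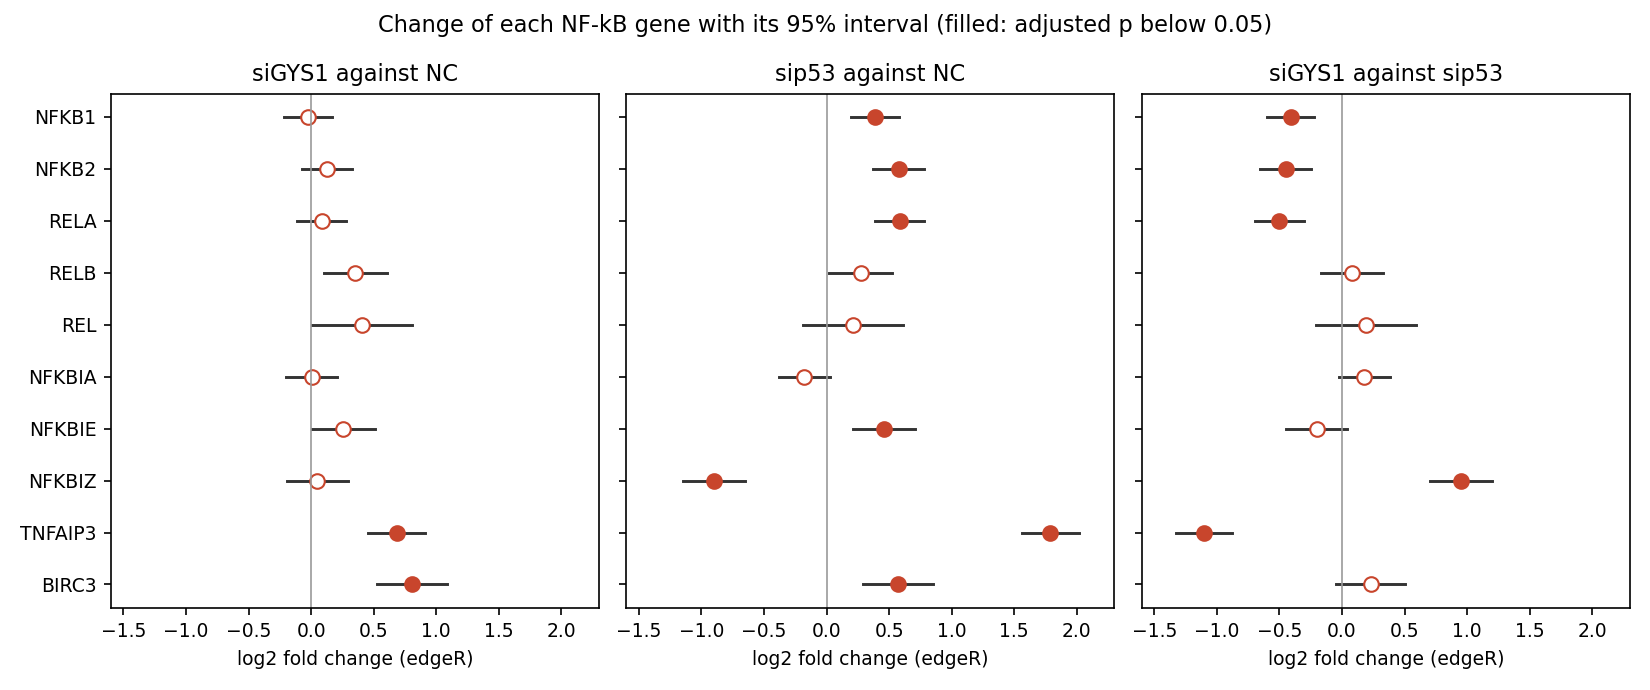
The log2 fold change (horizontal axis, edgeR) of each of the 10 genes with its 95% interval as a bar, in the 3 comparisons; filled points have an adjusted p below 0.05. With siGYS1 2 points are filled, at 0.69 and 0.80; with sip53 they run from -0.90 for NFKBIZ to 1.79 for TNFAIP3.

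Both comparisons above share the NC libraries, so the direct comparison of siGYS1 with sip53 was used for differences between the knockdowns. In it 1 of 10 members was higher and 4 lower with siGYS1, against 22.5% higher and 20.9% lower (43.4% in either direction) of all tested genes. TNFAIP3 was at 46.6% of its sip53 level (log2 -1.10, SE 0.10, adjusted p = 2.72e-05). NFKBIZ was 1.93-fold higher with siGYS1 (log2 0.95, SE 0.11, adjusted p = 0.000127). RELA (log2 -0.50), NFKB2 (-0.45) and NFKB1 (-0.41) were lower, at adjusted p-values of 0.00134, 0.00283 and 0.00344, with NFKB1 missing the threshold with limma on FPKM (-0.35). BIRC3 did not differ detectably between the knockdowns, with a fold change of 1.17 (interval 0.97 to 1.42, adjusted p = 0.159). RELB (1.06, interval 0.89 to 1.26), REL, NFKBIA and NFKBIE did not pass either. Without siGYS1 replicate 2, 8 members passed in place of 5, with BIRC3 (log2 0.39), REL (0.43) and NFKBIE (-0.36) added.

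Levels per transcript length were set side by side as TPM, the share of a transcript among all transcripts. The summed TPM of the 5 subunit genes was 208 and 186 with NC, 225 and 213 with siGYS1, and 265 and 267 with sip53. NFKB2 gave 43.1% and 46.8% of that sum with NC, 41.9% and 46.8% with siGYS1, and 47.2% and 46.6% with sip53. The RELA share was 20.8% and 19.6% with NC, 18.3% and 18.8% with siGYS1, and 20.6% and 19.9% with sip53, so the siGYS1 pair lay lowest. RELB held 10.6% and 12.2% with NC, 11.9% and 14.2% with siGYS1, and 9.36% and 9.8% with sip53. The sip53 libraries thus had the lowest RELB share of the 6. REL stayed between 2.13% and 4.05% in every library.

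Ratios between members within a library do not depend on the scaling between libraries. NFKBIA transcripts per RELA transcript were 4.8 and 5.64 with NC, 4.99 and 5.25 with siGYS1, and 3.29 and 3.14 with sip53. The NFKBIZ to NFKB1 ratio was 3.11 and 3.29 with NC, 2.84 and 3.15 with siGYS1, and 1.26 and 1.16 with sip53. TNFAIP3 per NFKBIZ was 0.0992 and 0.103 with NC, 0.156 and 0.172 with siGYS1, and 0.656 and 0.641 with sip53. No groups overlapped in it, but it sets the member that rose most with sip53 over the only one that fell. The separation of sip53 from NC thus follows from the changes given above. The planned ratios were those to RELA, and neither this one nor NFKBIZ to NFKB1 was among them. NFKB2 per RELA, at 2.07 to 2.49, overlapped across all 3 groups. NFKB1 per RELA did too, at 1.07 and 0.968 with NC, 1.3 and 0.935 with siGYS1, and 0.987 and 1.09 with sip53. NFKBIE per RELA was 0.365 and 0.436 with NC, 0.402 and 0.454 with siGYS1, and 0.35 and 0.37 with sip53. Its sip53 libraries overlapped NC.

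**Figure D3:**
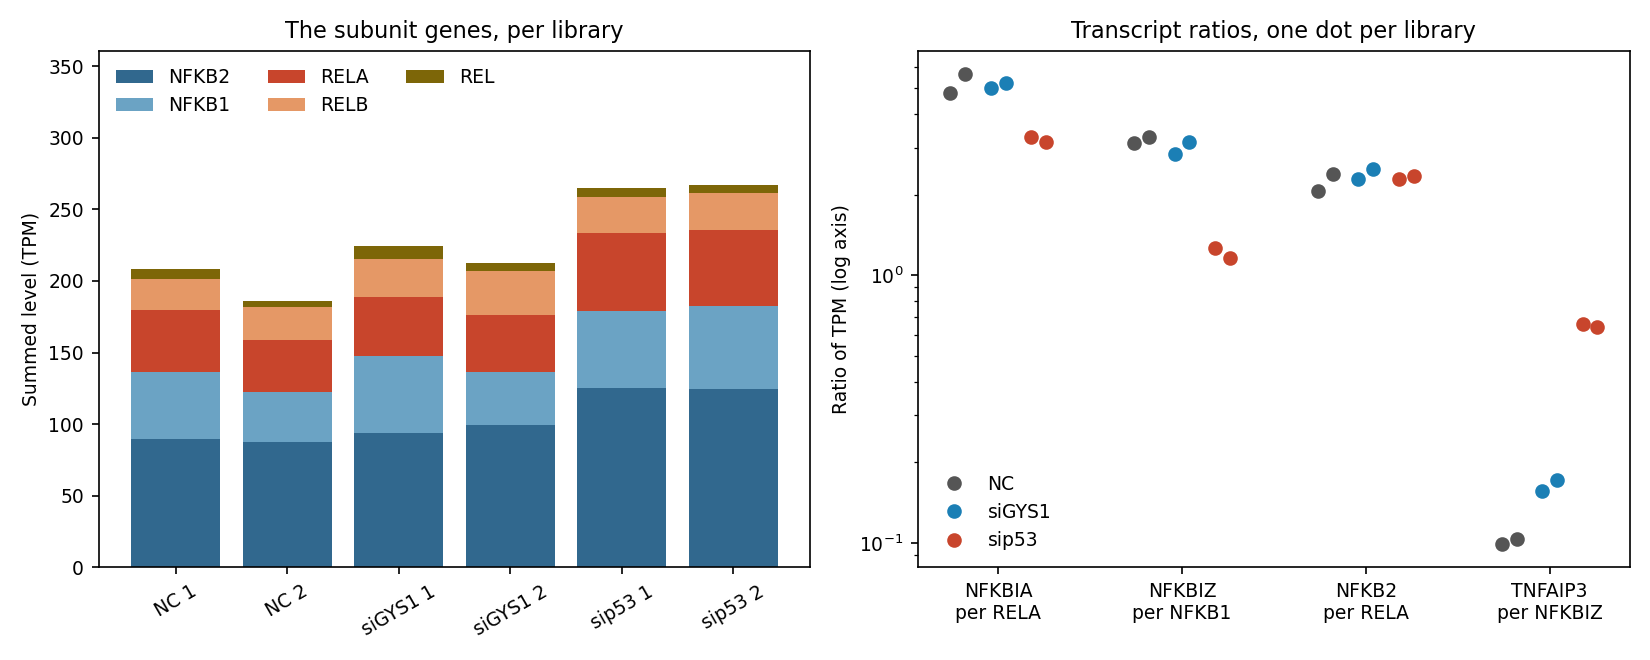
Left, TPM of the 5 subunit genes stacked per library (vertical axis from 0); right, ratios of TPM between members on a log axis, with a dot for each library (NC grey, siGYS1 blue, sip53 red). The stacked sum is 265 and 267 in the sip53 libraries against 208 and 186 with NC. The sip53 dots stand apart for every plotted ratio except NFKB2 per RELA. NFKB1 per RELA and NFKBIE per RELA, which overlapped between sip53 and NC, are not plotted.

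Profile likeness was measured as the root mean square difference of centred log2 CPM (counts scaled to library depth) over the 6 libraries, against 11801 other genes with a mean of at least 1 FPKM. The nearest gene to TNFAIP3 was TP53BP2 (0.05), which was at log2 0.62 with siGYS1 and 1.72 with sip53. The nearest to NFKBIZ was ZMYND8 (0.04), at 0.06 and -0.87, and the nearest to BIRC3 was EPG5 (0.05), at 0.84 and 0.65. Among the members themselves, RELA and NFKB2 were the closest pair (0.05). For the others the nearest genes were ATP1B1 for NFKB1, ATP6AP1 for NFKB2, NIP7 for RELA, SNX8 for RELB, RASAL2 for REL, SLBP for NFKBIA and NARF for NFKBIE, at differences of 0.02 to 0.04. With so many candidates and 6 libraries, a close match to some gene is found for any profile.

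Of 33 other signalling genes of the pathway, 4 rose and 3 fell with siGYS1 (median log2 0.08), and 10 rose and 3 fell with sip53 (median 0.12). Over all tested genes 19.7% passed with siGYS1 and 49.9% with sip53, so the list's counts were near the first share and below the second. By direction, 10.4% of all tested genes rose and 9.24% fell with siGYS1, and 23.4% rose and 26.5% fell with sip53. IRAK1, the kinase below the interleukin-1 and Toll-like receptors, fell with siGYS1 (log2 -0.80, SE 0.10, from 42.54 and 42.08 to 22.6 and 25.43 FPKM) and rose with sip53 (0.72, SE 0.09). The receptor adaptor MYD88 fell with siGYS1 too (-0.49), as did SHARPIN (-0.57), a subunit of the linear ubiquitin ligase complex. MAP3K14, which encodes the kinase NIK of the noncanonical branch, rose with siGYS1 (0.56, SE 0.11). With sip53 the largest rises of the list at 1 FPKM or more were RBCK1 (0.99), another subunit of the linear ubiquitin ligase, IKBKE (0.80), an IkB kinase relative, IRAK1 and BIRC2 (0.72), the paralogue of BIRC3. The IkB kinase genes, named after their values were seen, were at -0.20 (CHUK) and 0.18 (IKBKB) with sip53, neither passing, while IKBKG, the regulatory subunit, rose by 0.35 (adjusted p = 0.0355). In the direct comparison 5 were higher and 10 lower with siGYS1, including IRAK1 (-1.53), RBCK1 (-0.64), SHARPIN (-0.61) and MALT1 (-0.55), a protease of the CARD-BCL10 complex. Of all tested genes 43.4% passed in that comparison (22.5% higher and 20.9% lower), and the list's count in either direction was near that share.

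Among 17 tested genes for other inhibitors and deubiquitinases (of 18 listed), 1 rose with siGYS1 and 3 rose and 2 fell with sip53 (medians 0.09 and 0.14). Both counts were below the 19.7% and 49.9% of all tested genes. OTULIN, which cuts linear ubiquitin chains, rose with siGYS1 (log2 0.39, adjusted p = 0.0407) and fell with sip53 (-0.50, SE 0.12). CYLD, a deubiquitinase that limits NF-kB signalling, rose with sip53 (1.00, SE 0.12) as TNFAIP3 did. RNF11, a partner of the A20 complex, rose as well (0.69), while TNIP2, an A20-binding protein gene, fell (-0.65, SE 0.09). Directly compared, CYLD (-0.83) and RNF11 (-0.47) were lower and OTULIN (0.88) and TNIP2 (0.62) higher with siGYS1, among 2 higher and 3 lower of the list. That count was below the 43.4% of all tested genes that passed in the direct comparison.

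Textbook NF-kB target genes outside the members were counted in the same way. Of 38 listed, 30 were tested, and genes near 0 with NC entered the test through the group in which they were high. With siGYS1 10 of them rose and 3 fell (median log2 0.16), and with sip53 22 rose and 2 fell (median 0.66). Over all tested genes 10.4% rose and 9.24% fell with siGYS1, and 23.4% rose and 26.5% fell with sip53. CXCL8, the neutrophil chemokine interleukin-8, was at 289 and 276 FPKM with NC, 589 and 554 with siGYS1, and 2532 and 2344 with sip53 (log2 1.08 and 3.22). The chemokine gene CCL20 rose by 1.31 with siGYS1, and CCL5 by 2.11 from 0.48 and 0.42 FPKM. The anti-apoptotic BCL2A1 was at 0.79 and 1.7 FPKM with NC and 12.22 and 11.64 with sip53 (log2 3.36), and did not pass with siGYS1 (0.14). The growth factor gene CSF2 was at 0.33 and 0.22 FPKM with NC, 1.92 and 3.17 with siGYS1, and 32.28 and 30.65 with sip53. The fitted changes of CSF2, 3.21 and 6.86, start from a level near 0 and are imprecise in size. The interleukin-1 gene IL1A was likewise low with NC, at 0.39 and 0.42 FPKM, and at 3.19 and 3.06 with sip53 (log2 3.04). Directly compared, 2 targets were higher and 18 lower with siGYS1, led by CSF2 (-3.65), BCL2A1 (-3.22), IL1A (-2.86) and CXCL8 (-2.14). Of all tested genes, 22.5% were higher and 20.9% lower in that comparison.

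The falls among the targets are named here after their values were seen. With sip53 they were the chemokine genes CXCL3, from 106.4 and 104.15 to 26.31 and 26.79 FPKM (log2 -1.88), and CXCL1 (-0.58). NFKBIZ was low in the same libraries, in which 22 targets rose, among them the chemokine gene CXCL2 (0.48). With siGYS1 the falls were CCL2 (-0.996), the adhesion receptor gene ICAM1 (-0.48) and CXCL3 (-0.38), while NFKBIZ was at 0.05. A link between NFKBIZ and these genes was not tested. CXCL1 and CXCL3 are also the 2 targets that were higher with siGYS1 than with sip53 in the direct comparison.

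**Figure D4:**
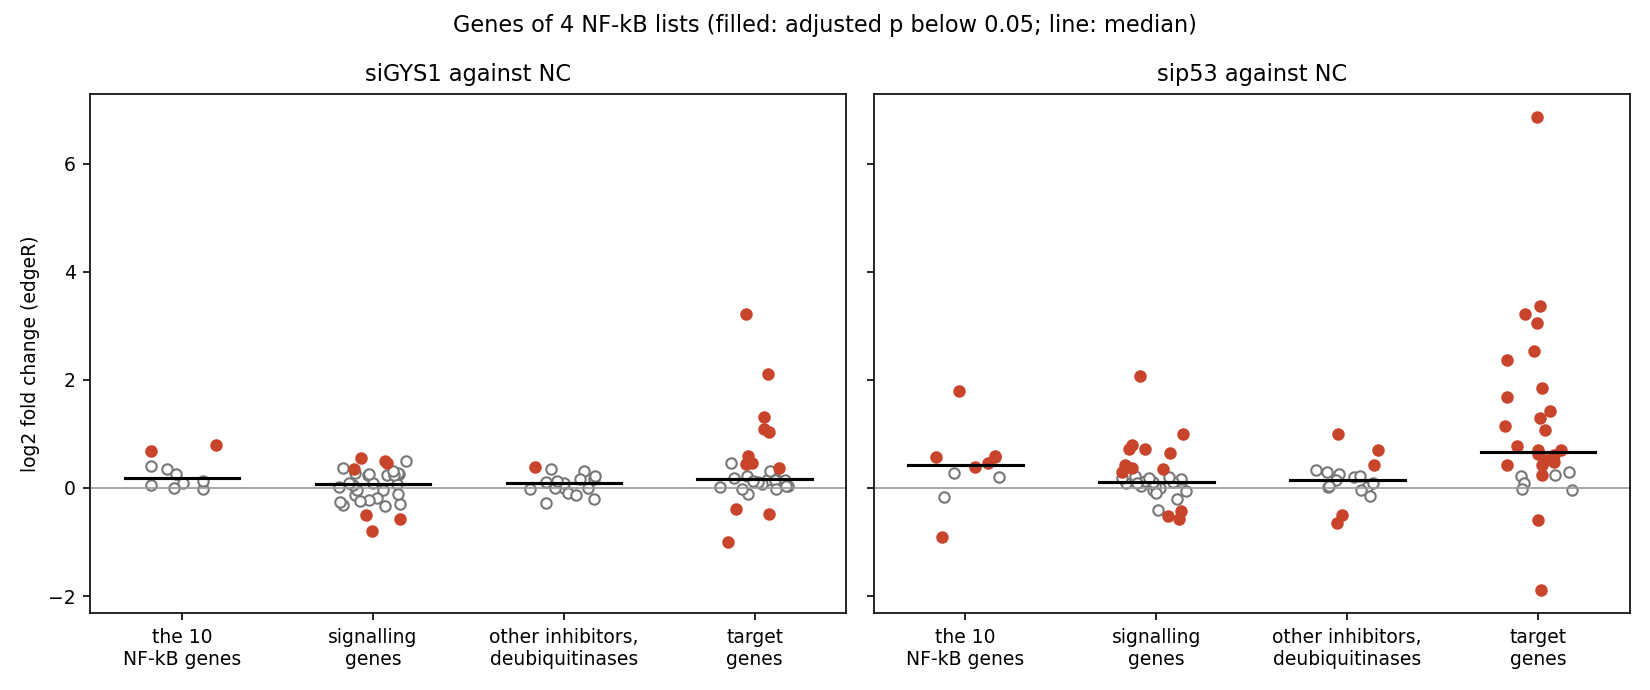
The log2 fold change against NC (vertical axis, edgeR) of every tested gene of the members and of the 3 other lists, 1 dot per gene, filled at an adjusted p below 0.05, with the median of each list as a line. In the sip53 panel the target genes reach 6.86 (CSF2, near 0 FPKM with NC) and have a median of 0.66, against 0.42 for the 10 members and 0.12 for the signalling genes.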

How the data were processed

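The data are 6 RNA-seq libraries of TOV21G. The table deposited by the authors holds, per the file headers, FPKM, TPM, read counts and scaled counts for each library. The authors' read counts are expected counts (16.8% to 18.1% of values per library are not whole, tolerance 1e-09) and were rounded here. The authors' scaled count, a normalized signal equal to the read count times 1 constant per library, was not used in any test. Some marker genes are not reported here. Column names that shorten a group's name were mapped to it by that name and number. The submitters' processing notes list several aligners and counters without roles, and the mouse build mm10, although 16830 of 16910 rows carry identifiers of the human GENCODE 29 annotation. No source used here names the tool behind the table.

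The quasi-likelihood test of edgeR 4.0.16 ran under R 4.3.3 with filterByExpr with a minimum count of 10, TMM, glmQLFit and glmQLFTest, all 6 libraries, group as the only term, 3 residual degrees of freedom. SE is the absolute log2 fold change over the root of F, and 95% intervals use a t quantile on the total degrees of freedom. The calling steps were also run on simulated counts with known changes in siGYS1. Those counts lack the length trends of these libraries, so that run does not check the calls reported here. Folds of FPKM and of counts can differ. The 15 alternatives cover DESeq2 1.42.0, limma 3.58.1 on log2 FPKM, scaling, filter, samples fitted, replicate block, length offsets and each library left out. The named genes are all members, up to 4 called genes of each other list and comparison with the largest change at a mean of 1 FPKM or more, and the nearest profile of each member. Members and lists were chosen with earlier results of these data known. Depth limits precision for genes of few reads. Per library NFKBIE had 394 to 524 reads, the fewest of the members, RELB 586 to 835 and REL 741 to 1246.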

Additional observations from a re-analysis of the deposited data

How the results depend on the processing

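Across 15 alternatives for each comparison, the number of members called with siGYS1 against NC stayed at 2 or 3 except in 3 settings: it was 5 with the replicate block, 4 with length-corrected offsets and 2 to 4 when a library was left out, the 4 without siGYS1 replicate 1. With sip53 against NC it ran from 6 to 9, the 9 with the replicate block. For siGYS1 against sip53 it ran from 5 to 8 when a library was left out, the 8 without siGYS1 replicate 2, and was 4 with limma on FPKM. The causes of these moves were not tested. No called member changed direction. Of single-gene values, 9, 10 and 5 gained the threshold in the 3 comparisons in that order, and 0, 3 and 2 lost it, the lost ones being NFKBIE with sip53 and NFKB1 in the direct comparison. The labels do not say that equal replicate numbers mark paired samples, and deviations of same-numbered libraries correlated at 0.28 (NC and siGYS1), -0.02 (NC and sip53) and 0.13 (siGYS1 and sip53), so the block is an alternative only; it calls 4662 genes with siGYS1 in place of 2602. The count of all called genes with siGYS1 is 926 without NC replicate 2 and 4260 without siGYS1 replicate 2, while TNFAIP3 and BIRC3 passed in both. Without NC replicate 1 it is 1696, without sip53 replicate 1 1550, without sip53 replicate 2 1571, with only the 2 compared groups 1577 and with length-corrected offsets 4107. All called genes fall from 6605 to 4271 with sip53 without its replicate 1, and from 5745 to 3416 and 3485 in the direct comparison without sip53 replicates 1 and 2.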
